A study of Mus musculus with 8 samples.

Results

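The *Wt1*-high capsular fibroblasts of the mouse liver, cluster m12c, were 60 of 1337 mesenchymal cells and of the 3491 cells of all 8 samples. They were taken as the study deposited them, as every cell placed in community cluster 12 by its fine-grained graph clustering of the mesenchymal cells. Of the 60 cells, 34 came from the male mesenchymal pool and 26 from the female mesenchymal pool, which was 3.41% of the male pool (exact 95% interval 2.37 to 4.73) and 7.67% of the female pool (5.07 to 11.04). Each pool is 1 sample of the series, holds cells of healthy untreated adult C57BL6/J mice of 1 sex, and does not name the mouse of each cell. The mesenchymal cells had been enriched through the fluorescent reporters *Pdgfrb*-GFP, *Pdgfra*-H2bGFP and *Acta2*-GFP or an antibody to PDGFRα. Single cells from enzymatically dissociated liver were sorted into plates and sequenced as full-length transcriptomes with Smart-seq2. The cluster was set against m11c, which shares its coarser cluster (53 cells, *Scara5* fibroblasts with little *Wt1*), against m3c (113 cells, the capsular hepatic stellate cells) and against the other fibroblasts (clusters m1, m4, m8 and m10, averaged with equal weight, of which m8 and m10 held male cells alone).

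The liver is wrapped in a thin collagenous capsule covered by a sheet of mesothelial cells, with fibroblasts and stellate cells lying beneath the sheet. *Wt1* encodes a zinc finger transcription factor that marks mesothelium and mesenchyme derived from it. *Osr1* encodes another zinc finger transcription factor of early mesenchyme, *Scara5* a scavenger receptor that binds ferritin, and *Fbln2* a fibulin of the elastic fibre matrix. Hepatic stellate cells store vitamin A, express *Reln* and *Lrat*, and lie along the sinusoids, whereas fibroblasts build the connective tissue of the capsule and the portal tract.

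The m12c cells were sequenced less deeply in the male pool than in the female pool, and sex and plate could not be told apart. The median cell had 145446 counts and 3010 detected genes in the male pool (56084 to 611544 counts), and 310604 counts and 6223.5 detected genes in the female pool (130605 to 580942 counts). All 26 female cells lay on 1 plate, which held every female mesenchymal cell, and the male cells lay on 3 of 9 male plates, with 16, 17 and 1 cells. Spike-in RNA took a median of 1.34% of male and 1.44% of female counts, and mitochondrial genes 1.48% and 1.05%. *Xist* was at 0 and 182 CPM (reads per 1e+06 counts) in the male and female m12c cells, and the Y-linked *Ddx3y* at 64.6 and 0 CPM, as the sex labels give. No cell name occurred more than once. All levels below are CPM of the counts summed over the cells of 1 cluster in 1 pool, and all shares are shares of cells with at least 20 counts of a gene, since some genes gave only a few counts in many cells of the deep female plate. The source of such low counts was not tested. *Reln*, for example, had at least 1 count in 73.1% of female m12c cells and in 71.0% of female m1 fibroblasts, but 20 counts in 1 and in 0 of them. The intervals of shares cover counting error only.

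The 4 genes by which the cluster is known were all high in m12c, and *Fbln2* and *Osr1* were higher there than in m11c and m3c in both pools. The level of *Wt1* was 397 CPM in the male pool of m12c and 248 CPM in its female pool. It was no lower in m3c, at 414 and 422 CPM, and was lower in m11c, at 53.8 and 71.7 CPM. In the 6 mesothelial cells of cluster m16c it differed between the pools, at 450.4 and 78.3 CPM. In the other fibroblasts it lay between 0.436 and 14.8 CPM. *Scara5* was at 1084 and 588 CPM in m12c and at 952 and 734 CPM in m11c, so the pools of these clusters overlapped, whereas m3c had 1.38 and 3.83 CPM. *Fbln2* was at 1700.0 and 2057 CPM in m12c, at 638 and 765 CPM in m11c, and at 77.7 and 9.81 CPM in m3c. *Osr1* was at 1005 and 816 CPM in m12c, at 371 and 150.0 CPM in m11c, and at 0.371 and 9.81 CPM in m3c. The study chose these markers on the same cells, so their levels describe the cluster and are no test of its label. *Wt1* was not higher in m12c than in the stellate cells of the capsule. Whether these cells lay in the capsule cannot be read from dissociated cells.

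**Figure D1:**
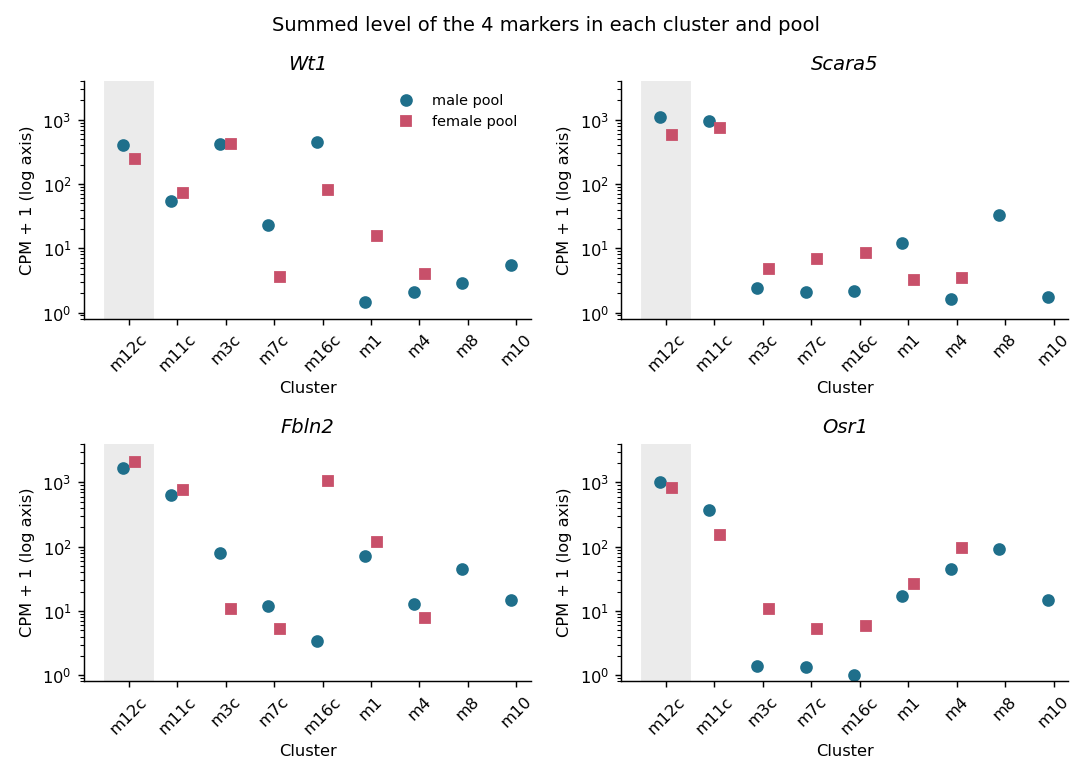
Level of *Wt1*, *Scara5*, *Fbln2* and *Osr1* (CPM + 1, log axis) in each cluster, with 1 point per pool (circles, male; squares, female) and no error bar, since each point is 1 sum. In m12c all 4 genes stood at 248 CPM or more in both pools, while m3c matched m12c in *Wt1* alone and m11c matched it in *Scara5*.

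Cell by cell, most m12c cells had at least 3 of the 4 markers, and 16 of 60 had all 4. *Wt1* reached 20 counts in 22 of 34 male cells (64.7%, exact 95% interval 46.5 to 80.3) and in 17 of 26 female cells (65.4%, 44.3 to 82.8). *Scara5* did so in 22 male and 15 female cells, *Fbln2* in 24 and 20, and *Osr1* in 25 and 19. At least 3 of the 4 markers reached 20 counts in 39 of 60 m12c cells (65%), against 16 of 53 m11c cells (30.2%) and 0 of 113 m3c cells. The exact 95% interval for 0 of 113 reaches 3.21%, and 3 cells would make 2.65%. *Wt1* and *Scara5* were counted in the same cell in 24 m12c cells, *Wt1* without *Scara5* in 15, *Scara5* without *Wt1* in 13 and neither in 8. The m11c cells differed in this, with *Scara5* but not *Wt1* in 29 of 53 cells and both in 4. In m3c, 48 of the 63 cells with *Wt1* also had *Reln*, against 1 of 39 in m12c. The median depth of m11c and m3c cells, 262455 and 197731 counts, lay on either side of the 219894 counts of the median m12c cell.

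**Figure D2:**
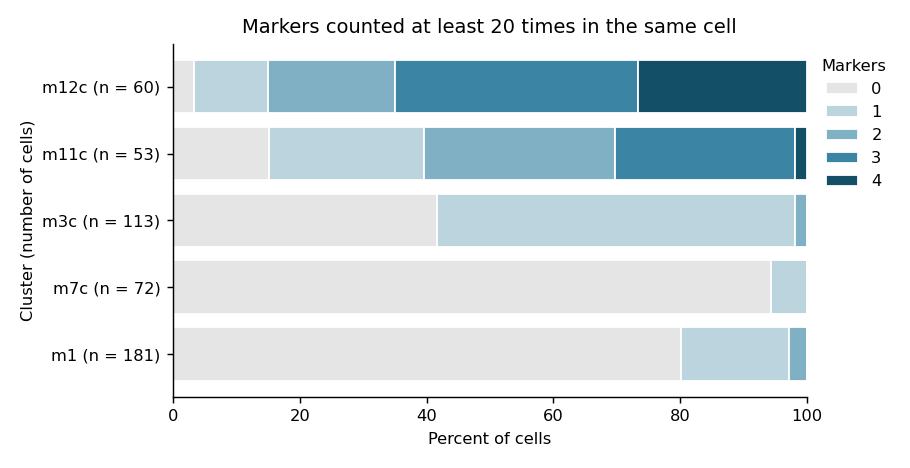
Share of cells (percent) by how many of the 4 markers reached 20 counts in that cell, for m12c, m11c, m3c, the stellate cluster m7c and fibroblast cluster m1. In m12c 16 cells had all 4 markers and 2 had none, whereas no m3c, m7c or m1 cell had more than 2.

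Within m12c the markers spread widely from cell to cell. The median male cell had 447 CPM of *Wt1*, with quartiles at 12.8 and 665 CPM, and the median female cell 132 CPM, with quartiles at 6.30 and 284 CPM. For *Fbln2* the medians were 1285 and 2052 CPM, and for *Osr1* 828 and 779 CPM, with a lower quartile of 125 and 66.7 CPM. *Scara5* had medians of 569 and 487 CPM and lower quartiles of 13.1 and 0.924 CPM. In both pools some cells therefore had little of a given marker, and 15 cells with *Wt1* had no 20 counts of *Scara5* while 13 cells with *Scara5* had no 20 counts of *Wt1*.

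**Figure D3:**
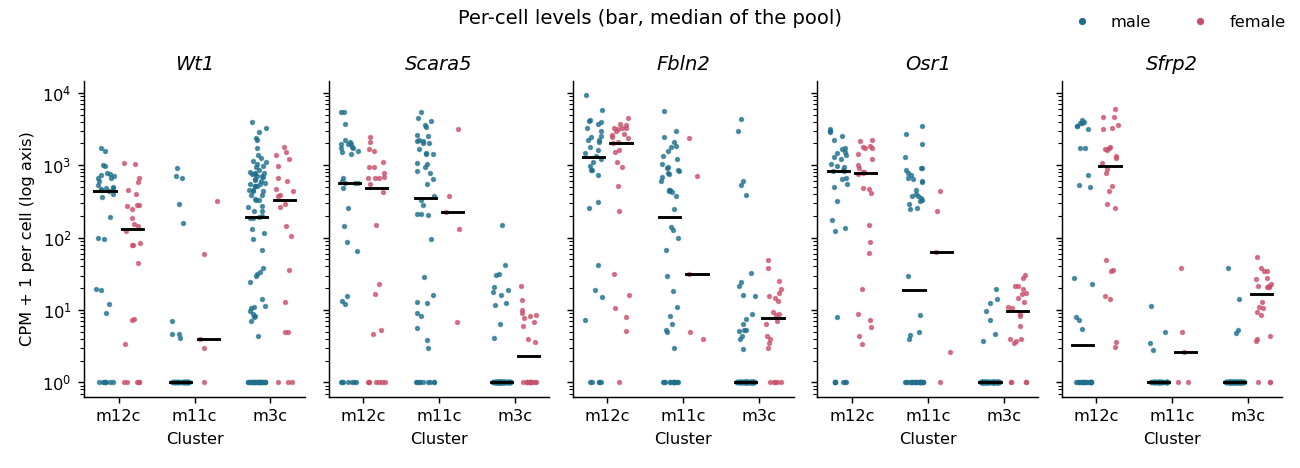
CPM + 1 per cell (log axis) of the 4 markers and *Sfrp2* in m12c, m11c and m3c, with 1 point per cell (male cells left, female cells right in each cluster) and a bar at the median of the pool. The m12c points form a dense group at high CPM and a tail towards 0 for each marker, and *Sfrp2* is high in part of the m12c cells and low throughout m11c and m3c.

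Mesothelial genes were low in m12c, and single cells carried endothelial or immune transcripts. Of 14 mesothelial genes, 13 were under 10 CPM in each pool, and their summed level was 47.4 and 88.8 CPM against 19200 and 15936 CPM in the mesothelial cells of m16c. *Msln* (mesothelin), a defining marker, was at 0 and 2.60 CPM in m12c, and 6 of the 14 genes were at 0 in the male and 3 in the female cells. The 8 endothelial genes summed to 56.1 and 157 CPM, against 137 and 111 CPM in m11c, with up to 2962 CPM in a single female cell and 3 of the 8 genes under 10 CPM in the female pool. The 8 immune genes summed to 73.6 and 145 CPM, against 42.5 and 36.9 CPM in m11c, with up to 1521 CPM in a single cell. The 10 hepatocyte genes summed to 1139.6 and 1577 CPM, within the range of m11c (999.9 and 662 CPM) and m3c (1391 and 2849 CPM). The 12 cell cycle genes summed to 124 and 111 CPM, against 128 and 84.8 CPM in m11c and 61.3 and 104 CPM in m1, and *Mki67*, *Cdk1* and *Ccnb2* among them were at 0 in both m12c pools. Counts of the 18 general fibroblast genes summed to 53100 and 45689.8 CPM, above m11c (43848 and 42685 CPM) and m3c (36334 and 31314 CPM). Both receptors used for sorting were present, *Pdgfra* at 838 and 717 CPM and *Pdgfrb* at 817 and 1048 CPM. Neither was called between m12c and m11c, with log2 fold changes of 0.53 ± 0.39 and 0.55 ± 0.33 (SE).

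A single female cell stood apart in genes of stellate cells. It held 94.4% of the female m12c counts of *Reln* and 21.1% of the female counts of the 19 stellate genes tested, and was the highest of the 26 female cells for 13 of these genes, among them *Lrat*, the enzyme that esterifies retinol, and the collectin *Colec11*. This cell also had the most detected genes of the cluster (9489), and all 4 markers reached 20 counts in it. With it, female m12c had 103 CPM of *Reln*, 109 CPM of *Lrat* and 29.0 CPM of *Vipr1*. Without it, these stood at 6.09, 10.4 and 1.19 CPM, while *Wt1* went from 248 to 253 CPM. Whether 1 or several cells had been in this well was not tested. The comparisons below include it, and the counts of calls without it are given where they differ.

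The comparisons used 13 sums of counts, 1 for each of 8 clusters in each pool with at least 5 cells, in 1 edgeR quasi-likelihood model. A gene was called where its Benjamini-Hochberg adjusted p was under 0.05 and its log2 fold change at least 1 in size. The clusters had been drawn from these same transcriptomes, so the calls describe how they separate and are no independent test of it. The pools are the replicates, and nothing in the labels says that they stand for more than the spread between the pools. Where a group of genes is said to hold no edgeR call, its counts at an unadjusted p under 0.05 and by DESeq2 stand beside it, to be read against the share of all 20030 genes that passed these rules. At an unadjusted p under 0.05 edgeR had 3.48% of all genes higher and 3.09% lower than in m11c, 4.47% and 4.59% than in m3c, and 6.81% and 3.62% than in the other fibroblasts. DESeq2 called 1.65% and 1.71%, 2.65% and 2.83%, and 2.44% and 2.9%.

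Against m11c edgeR called few genes, among them lower levels of the stem cell antigen gene *Ly6a*, the BMP-type ligand *Gdf10* and the Wnt modulator *Sfrp1*. Of 20030 genes tested, 1 was called higher (0.00499%) and 7 lower (0.0349%), whereas DESeq2 called 330 and 342. With the pool as a replicate block the edgeR calls were 0 and 3, and 2 of these 3 were among the 7. *Flt1*, which encodes the VEGF receptor 1, was the gene called higher, at 198 and 119.9 CPM in m12c and 4.17 and 0.435 CPM in m11c (log2 fold change 5.93 ± 0.96, edgeR adjusted p = 0.0422). It lost its call with the pool as a block, with sums per plate, with other minimum numbers of cells per sum and in a model of these clusters alone, though its log2 fold change lay between 5.23 and 6.60 in all of them. The endothelial genes *Pecam1* and *Cdh5* reached 20 counts in 3 and 0 of the 60 m12c cells, and *Flt1* in 17. Of the 8 endothelial genes tested, which do not include *Flt1*, 5 lay above and 3 below 0 against m11c, with a median log2 fold change of 2.16. None was called by edgeR, with 2 higher and 0 lower at an unadjusted p under 0.05, and DESeq2 called 0.

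*Ly6a*, the gene of the surface antigen Sca-1, was at 29.7 and 26.7 CPM in m12c and at 336 and 692 CPM in m11c (log2 fold change −4.21 ± 0.51, edgeR adjusted p = 0.0118). *Gdf10*, a ligand of the BMP family, was at 154 and 64.1 CPM in m12c and at 1059 and 1601 CPM in m11c (−3.60 ± 0.49, edgeR adjusted p = 0.0118). *Ly6a* and *Gdf10* were also called with the pool as a block, and the other 5 of the 7 were not. *Sfrp1*, a secreted Wnt modulator, was at 67.4 and 173 CPM against 872 and 1208 CPM (−3.17 ± 0.45, edgeR adjusted p = 0.0133). *Abcc9*, the regulatory subunit of an ATP-sensitive potassium channel, was at 88.5 and 62.2 CPM against 425 and 745 CPM (−2.97 ± 0.45, edgeR adjusted p = 0.0244), and lost its call without the cell high in *Reln*. *Mfrp*, *C1qtnf5* and the predicted gene *Gm20444* had log2 fold changes between −5.24 and −5.36 and overlap in the genome, so their lower level cannot be assigned to 1 of them. For each of the 7 genes both pools of m12c lay below both pools of m11c.

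The difference in *Wt1* between m12c and m11c, which gave the clusters their working names, was not called (log2 fold change 2.36 ± 1.04, edgeR adjusted p = 0.741), nor were *Osr1* (1.78 ± 0.93) and *Fbln2* (1.39 ± 0.65). *Scara5* did not differ beyond its error (−0.02 ± 0.73), and its sign changed with the pool and with the settings. Larger but uncalled differences stood in *Sfrp2* (8.15 ± 1.86, edgeR adjusted p = 0.323), a further secreted Wnt modulator, which was at 793 and 1539.9 CPM in m12c and 0.642 and 8.26 CPM in m11c, and in *Mest*, an imprinted gene of the mesoderm, at 662 and 184.5 CPM against 0.883 and 0 CPM (edgeR adjusted p = 0.134). Both were carried by part of the cells. The female m11c sum rested on 5 cells, which limits every value of this comparison.

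Within single plates the genes given here kept the direction they had in the pools, except *Scara5*. In all, 3 plates held at least 5 cells of each cluster, male plate 1 (16 and 34 cells of m12c and m11c), male plate 2 (17 and 6 cells) and the female plate (26 and 5 cells). *Wt1* was at 428, 378 and 248 CPM in m12c of these plates and at 64.0, 0 and 71.7 CPM in m11c. *Osr1* was at 1131, 871 and 816 CPM against 404, 237 and 150.0 CPM. *Ly6a* was at 41.4, 10.4 and 26.7 CPM against 375, 78.0 and 692 CPM. *Gdf10* was at 174, 137 and 64.1 CPM against 951, 1121 and 1601 CPM. For these 4 genes the groups of plates did not overlap. *Scara5* was at 890.2, 1407 and 588 CPM against 906, 2001 and 734 CPM. It was thus lower in m12c on each plate, though higher in the male pool as a whole, and the groups of plates overlapped. *Ackr3*, an atypical receptor of CXCL12 chosen after its values were seen, was at 269, 317 and 366 CPM against 1075, 1325 and 1469 CPM, and was not called (−1.97 ± 0.38).

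**Figure D4:**
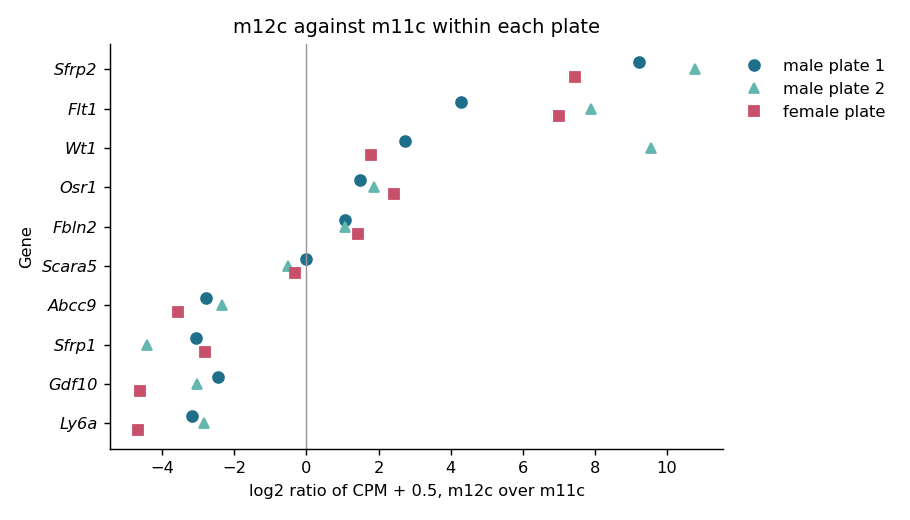
Log2 ratio of CPM + 0.5 of m12c over m11c within male plate 1 (circles), male plate 2 (triangles) and the female plate (squares), for 10 genes, with no error bar since each point is a ratio of 2 sums. *Ly6a*, *Gdf10*, *Sfrp1* and *Abcc9* lay below 0 and *Osr1*, *Fbln2* and *Flt1* above 0 on all 3 plates, *Scara5* lay near 0, and the points of *Wt1* and *Sfrp2* on male plate 2 rest on the pseudocount because m11c had 0 counts there.

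Against the capsular stellate cells of m3c 84 genes were called higher in m12c (0.419%) and 58 lower (0.29%). *Wt1* itself did not differ beyond its error (log2 fold change −0.27 ± 0.99). *Pi16*, a marker of adventitial fibroblasts, was at 789 and 699.8 CPM in m12c and 2.28 and 6.15 CPM in m3c (7.59 ± 0.84, edgeR adjusted p = 0.000372). *Penk*, the precursor of the enkephalins, was at 964 and 593 CPM against 2.92 and 6.99 CPM (7.43 ± 0.75, edgeR adjusted p = 0.000185). *Vit*, encoding the matrix protein vitrin, was at 579 and 381 CPM against 0.159 and 2.33 CPM (8.87 ± 1.39). *Fndc1* (7.87 ± 1.13), the microfibril protein *Mfap5* (7.33 ± 1.38) and the laminin chain *Lama4* (7.10 ± 1.23) were called too, as were *Scara5* (8.49 ± 1.02) and *Osr1* (7.64 ± 1.21). All of these had higher levels in both pools of m12c. *Vit*, *Mfap5* and *Pi16* were not particular to m12c. They reached 20 counts in 29, 27 and 18 of 53 m11c cells, against 29, 26 and 26 of 60 m12c cells.

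Of the genes lower in m12c than in m3c, *Adamtsl2*, which encodes a protein of microfibrils, was at 25.9 and 72.5 CPM in m12c and at 2104 and 2891 CPM in m3c (log2 fold change −5.60 ± 0.50, edgeR adjusted p = 6.47e-05). *Alcam*, an adhesion molecule of the immunoglobulin family, was at 30.0 and 37.1 CPM against 1522 and 1509 CPM (−5.41 ± 0.88, edgeR adjusted p = 0.00601), and reached 20 counts in 7 of 60 m12c cells against 101 of 113 m3c cells. The integrin *Itga1* (−5.38 ± 0.95), the endothelin receptor *Ednra* (−5.19 ± 1.04), the semaphorin *Sema6d* (−6.57 ± 1.07) and the non-muscle myosin *Myh9* (−5.40 ± 0.86) were called lower as well. *Reln* was at 1.74 and 103 CPM in m12c and 1529 and 1624 CPM in m3c, and was not called (−4.89 ± 1.27). Without the 1 cell high in *Reln* its log2 fold change was −8.55 and it was called, and the counts of called genes became 91 and 85. *Gdf10*, *Ly6a* and *Abcc9* were lower in m12c than in m3c too (−2.84 ± 0.47, −2.59 ± 0.48 and −3.53 ± 0.46), while *Flt1* was as high in m3c as in m12c, at 254 and 234 CPM.

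Against the other fibroblasts 78 genes were called higher (0.389%) and 65 lower (0.325%), and all 4 markers were among the higher ones. *Scara5* was 0.627 to 31.8 CPM in the other fibroblasts (log2 fold change 7.82 ± 0.69, edgeR adjusted p = 4.43e-05), and *Wt1*, *Fbln2* and *Osr1* differed by 6.63 ± 0.89, 6.11 ± 0.56 and 4.65 ± 0.74. *Adgrd1*, an adhesion G protein-coupled receptor, was at 344 and 317 CPM in m12c and 1.19 to 27.0 CPM in the others (4.67 ± 0.81, edgeR adjusted p = 0.0138). *Sfrp2* had 0.149 to 13.1 CPM there (8.50 ± 1.31), *Mfap5* 0.149 to 28.1 CPM (7.39 ± 0.97) and *Mest* 1.19 to 23.4 CPM (5.23 ± 1.01). *Rtl3*, a gene derived from a retrotransposon, was at 527 and 279 CPM in m12c and 0.597 to 19.3 CPM in the others (5.36 ± 1.11). *Lrrn4cl* was at 213 and 276 CPM against 2.35 to 19.3 CPM (5.34 ± 1.08). The levels of these 10 genes in m12c lay above those of every sum of m1, m4, m8 and m10. Some of them were as frequent in m11c, which is not part of this comparison. *Adgrd1* and *Mfap5* reached 20 counts in 32 and 27 of 53 m11c cells, against 28 and 26 of 60 m12c cells. *Rtl3* did so in 11 m11c and 23 m12c cells, and *Sfrp2* and *Mest* in 0 m11c cells. A block for the pool gave 71 higher and 63 lower calls, of which 55 and 49 were among those called without it. With sums per plate 25 and 22 were called, of which 15 and 21 were among them. *Mest* and *Lrrn4cl* lost their call under both, and *Fbln2*, *Osr1*, *Sfrp2*, *Mfap5* and *Rtl3* with sums per plate, where their log2 fold changes lay between 4.17 and 7.91. Without the cell high in *Reln*, 85 and 82 genes were called, among them all of the 78 and 65.

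Lower in m12c than in the other fibroblasts were *Lamc3*, a laminin chain of basement membranes, at 2.85 and 5.87 CPM against 303 to 745 CPM (log2 fold change −7.02 ± 0.80, edgeR adjusted p = 0.000395), and *Epha3*, an ephrin receptor, at 2.38 and 1.02 CPM against 98.9 to 308 CPM (−6.74 ± 1.22, edgeR adjusted p = 0.0172). *Acsbg1*, an acyl-CoA synthetase, was at 0.634 and 6.21 CPM against 108 to 468 CPM (−6.06 ± 1.32). *Cyp2e1*, better known from hepatocytes, was at 21.4 and 17.6 CPM against 240.1 to 1233 CPM (−4.81 ± 0.96). Both subunits of the ATP-sensitive channel of vessel wall cells were lower, with log2 fold changes of −3.36 ± 0.43 for *Abcc9* and −4.68 ± 0.95 for *Kcnj8*. *Ly6a* (−4.64 ± 0.50), *Gdf10* (−4.03 ± 0.47) and *Sfrp1* (−2.99 ± 0.42) were lower than in the other fibroblasts, as they were than in m11c, with which this comparison shares the m12c sums. *Acsbg1* and *Kcnj8* lost their call with the pool as a block and with sums per plate, and *Cyp2e1* and *Sfrp1* with sums per plate.

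Among the genes named for the groups that follow, not every call held under other models. Against m3c *Cd55*, *Emilin2*, *Kcnj8* and *Mfap5* lost their call with a block for the pool, as did *Ednra* above, and *Cd55*, *Col4a1*, *Ebf1*, *Fbln2*, *Fos*, *Gpc3* and *Serpinf1* with sums per plate. A model of m12c and m3c alone, which has fewer sums, called 19 of the 84 higher and 9 of the 58 lower genes again, and 30 of the named genes lost their call in it. In the comparison with the other fibroblasts *Aldh1a3*, *Chrdl1*, *Fbln7*, *Kcnj8*, *Rspo3* and *Sema6d* lost it with the block and with sums per plate. With sums per plate alone *Adamtsl1*, *C3*, *Clu*, *Fmod*, *Gas6*, *Gpc3*, *Igfbp6*, *Nbl1*, *Nrp1*, *Plat*, *Prelp*, *Serpinf1* and *Steap3* were not called against them. Their direction was the same with the block and with sums per plate.

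Described by groups of genes, the m12c cells stood between m3c and m11c in adventitial fibroblast genes. Of 23 adventitial fibroblast genes tested, 6 were higher than in m3c, among them *Pi16*, *Clec3b* (6.96 ± 0.79), the complement regulator *Cd55* (4.52 ± 0.97) and *Cd34* (2.34 ± 0.28), and 1, *Ly6a*, was lower, with a median log2 fold change of 2.33 against −0.03 over all genes. Against the other fibroblasts 3 were higher and 1 lower, with a median of 1.65 against −0.02. Against m11c the group leaned the other way, with 3 genes above and 20 below 0, a median of −0.85 against 0.00 over all genes, and *Ly6a* as the 1 called member. Its summed level was 4214 and 4945 CPM in m12c, 8052 and 10996 CPM in m11c and 1495 and 1308 CPM in m3c. Of 19 stellate genes tested none was called against m3c by edgeR, though 17 lay below 0, with a median of −1.93. At an unadjusted p under 0.05 edgeR had 10 lower and 0 higher, and DESeq2 called 5 lower.

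Among 40 transcription factors of mesenchyme tested, 4 were higher than in m3c, namely *Osr1*, *Ebf2* (9.94 ± 1.47), *Ebf1* (4.15 ± 0.88) and *Prrx1* (3.73 ± 0.78). *Ebf2*, an early B-cell factor, was at 290.1 and 135 CPM in m12c and at 0.159 and 0.333 CPM in m3c. Against the other fibroblasts *Wt1*, *Osr1* and *Ebf2* (8.89 ± 0.97) were called. None of the 40 was called against m11c by edgeR, where 2 were higher and 4 lower at an unadjusted p under 0.05 and DESeq2 called 0 higher and 1 lower.

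Matrix genes differed from m3c in both directions. Of 23 elastic fibre genes tested, 4 were higher than in m3c, with *Fbln1* at 2728 and 4068 CPM against 89.5 and 116 CPM (log2 fold change 5.13 ± 0.25) next to *Fbln2*, *Mfap5* and *Emilin2* (6.37 ± 1.33), and *Emilin1* was lower (−2.05 ± 0.37). Against the other fibroblasts *Fbln2*, *Mfap5* and *Efemp1* (2.94 ± 0.26), another fibulin, were higher and *Fbln5* and *Fbln7* (−4.30 ± 0.84) lower. *Lox*, the enzyme that crosslinks collagen and elastin, was at 866 and 369 CPM in m12c, 206 and 17.4 CPM in m11c and 65.3 and 11.8 CPM in m3c, and was called in no comparison. Of 32 collagen genes tested, *Col6a6* was higher (5.47 ± 0.87) and *Col4a1*, of basement membranes, lower (−1.68 ± 0.37) than in m3c, and none was called in the other comparisons by edgeR. There, at an unadjusted p under 0.05, 5 collagens were higher and 1 lower than in m11c and 2 higher and 6 lower than in the other fibroblasts, and DESeq2 called 2 and 1, and 0 and 2. Of 20 proteoglycans tested, *Gpc3* was higher than in m3c (3.82 ± 0.57) and the other fibroblasts (2.38 ± 0.40), and *Fmod* (−2.05 ± 0.38) and *Prelp* (−1.45 ± 0.29) were lower than in the other fibroblasts. Of 33 proteases and inhibitors, *Mmp3* (6.54 ± 0.87), *Htra3* (3.09 ± 0.56) and *Serpinf1* (2.32 ± 0.31) were higher and *Adamtsl2* was lower than in m3c. Against the other fibroblasts *Serpinf1* (1.36 ± 0.23) and *Plat*, a plasminogen activator (1.90 ± 0.28), were higher, and *Adamts2* (−1.32 ± 0.26), *Adamtsl1* (−4.17 ± 0.80) and *Adamtsl2* (−3.71 ± 0.43) were lower.

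**Figure D5:**
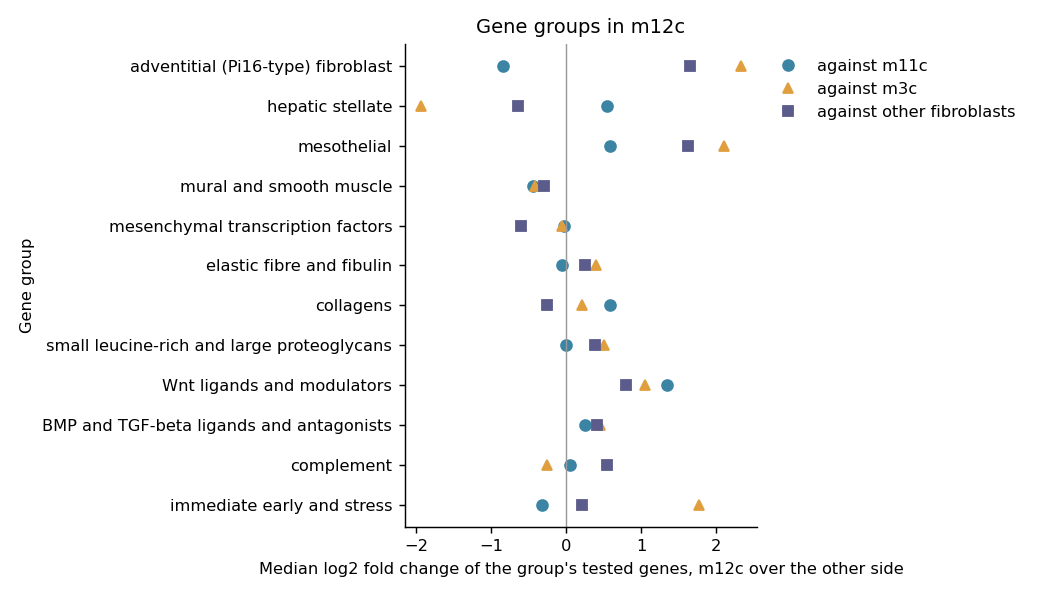
Median log2 fold change of the tested genes of 12 groups, m12c over m11c (circles), m3c (triangles) and the other fibroblasts (squares), with no error bar since each point is a median over genes. The adventitial group lay at 2.33 against m3c and −0.85 against m11c, the stellate group at −1.93 against m3c, and the median over all genes within 0.03 of 0.

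Secreted regulators of signalling were unevenly distributed. Of 24 Wnt genes tested, *Sfrp2* and *Rspo3*, an enhancer of Wnt signals (3.84 ± 0.76), were higher and *Sfrp1* lower than in the other fibroblasts, and *Nkd2*, an intracellular Wnt inhibitor, was higher than in m3c, at 215 and 294 CPM against 7.85 and 2.83 CPM (5.63 ± 0.84). Against m11c *Sfrp1* was the called member. Of 25 genes of the BMP and TGF-β families, *Nbl1*, a secreted BMP antagonist, was at 1772 and 1764 CPM in m12c, 526 and 338 CPM in m11c and 175 and 126 CPM in m3c. It was called against m3c (3.64 ± 0.40) and the other fibroblasts (3.50 ± 0.29, edgeR adjusted p = 3.2e-05), but not against m11c (2.01 ± 0.38, edgeR adjusted p = 0.134). *Gdf10* was lower in all 3 comparisons and *Chrdl1*, another BMP antagonist, was lower than in the other fibroblasts (−5.05 ± 1.09). Of the 8 insulin-like growth factor genes, *Igf1* was higher than in m3c, at 525 and 494 CPM against 41.6 and 21.5 CPM (4.10 ± 0.66), *Igfbp6* was higher (3.39 ± 0.41) and *Igfbp3* lower (−2.78 ± 0.40) than in the other fibroblasts, and none was called against m11c by edgeR, where 0 were higher and 1 lower at an unadjusted p under 0.05 and DESeq2 called 0.

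Genes of innate defence and of iron handling were also among those that set m12c apart from m3c and the other fibroblasts. The complement component *C3* was at 4046 and 5055 CPM in m12c, 4843 and 3769 CPM in m11c and 161 and 179 CPM in m3c, and was called against m3c (4.83 ± 0.29, edgeR adjusted p = 4.55e-07) and against the other fibroblasts (1.25 ± 0.20). Clusterin, encoded by *Clu*, was higher than in the other fibroblasts (2.52 ± 0.34). The chemokine *Cxcl12* was at 1052 and 1239 CPM in m12c and 4959.9 and 4958 CPM in m3c (−2.03 ± 0.19, edgeR adjusted p = 7.68e-05), and was lower than in the other fibroblasts too (−1.70 ± 0.16). *Cxcl1* was higher than in m3c (6.19 ± 0.83). Of 18 scavenger receptor and iron genes, *Scara5* and *Steap3*, a ferrireductase, at 489 and 634 CPM against 73.6 to 175 CPM (2.40 ± 0.41), were higher than in the other fibroblasts. *Aldh1a3*, which makes retinoic acid, was called higher than in the other fibroblasts (6.95 ± 1.44) at the low level of 13.6 and 45.5 CPM.

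Most of the few called genes of axon guidance, and the 2 called genes of mural cells, were lower in m12c. Against the other fibroblasts 7 of the 14 mural genes lay above 0 and 7 below. Against m11c, and likewise against m3c, 3 lay above and 11 below. Of 31 guidance genes tested, the neuropilin *Nrp1*, a co-receptor of semaphorins and VEGF, was at 129.9 and 105 CPM in m12c against 256 to 882 CPM in the other fibroblasts (−2.10 ± 0.37, edgeR adjusted p = 0.0147), and *Sema6d* and *Epha3* were lower there as well. Against m3c the semaphorin *Sema3b* was higher, at 167 and 196 CPM against 0.318 and 2.83 CPM (7.02 ± 1.28). None of the 31 was called against m11c by edgeR, with 1 higher and 5 lower at an unadjusted p under 0.05, and DESeq2 called 0 and 5. The 14 mural and smooth muscle genes summed to 364 CPM in male and 1623 CPM in female m12c cells, to 1385 and 2454 CPM in m11c and to 2386 and 3597 CPM in m3c, and edgeR called *Abcc9*, a potassium channel subunit, lower than in each of the 3 comparators and *Kcnj8*, its channel partner, lower than in m3c and the other fibroblasts. Of 31 other growth factors, *Ptn*, which encodes pleiotrophin, was higher than in m3c (5.56 ± 0.97) and *Gas6*, a ligand of the TAM receptors, was lower than in the other fibroblasts (−1.48 ± 0.22). Among 10 genes of peribiliary and portal fibroblasts, *Nkd2* and the ectonucleotidase *Entpd2* (3.72 ± 0.55) were higher than in m3c, and edgeR called none against the other fibroblasts, where 3 were higher and 3 lower at an unadjusted p under 0.05 and DESeq2 called 1 and 2.

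Immediate early genes, which are known to rise in cells during tissue dissociation, mostly lay higher in m12c than in m3c, but 1 of them was called. Of 20 such genes 19 lay above 0, with a median log2 fold change of 1.77 against −0.03 over all genes, and *Fos* was the 1 called (1.93 ± 0.26), a call lost with sums per plate. At an unadjusted p under 0.05 edgeR had 13 higher, and DESeq2 called 7 higher. Their summed level was 13929 and 10926 CPM in m12c, 20875 and 12329 CPM in m11c and 3927 and 4907 CPM in m3c. Their part in the other differences from m3c was not tested.

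The genes that the study named for cells of the capsule were chosen on these samples and are no independent evidence. Of those 17 genes, 5 were higher than in the other fibroblasts, the 4 markers and *Adgrd1*, and *Fmod* was lower. Against m3c *Scara5*, *Fbln2* and *Osr1* were higher and *Alcam* lower. Against m11c edgeR called none, with 3 higher and 1 lower at an unadjusted p under 0.05, and DESeq2 called 1 higher. *Adgrd1* was at 601 and 576 CPM in m11c and at 457 and 91.1 CPM in m3c, and reached 20 counts in 28 of 60 m12c cells (46.7%), 32 of 53 m11c cells (60.4%) and 36 of 113 m3c cells (31.9%). *Ncam1*, at 1.74 and 25.4 CPM in m12c and 343 and 91.1 CPM in m3c, was not called (−3.97 ± 1.34).

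Inside m12c a few genes were high in part of the cells and nearly absent from the rest. These were chosen after their values were seen and were not tested. *Sfrp2* reached 20 counts in 31 of 60 m12c cells (51.7%, exact 95% interval 38.4 to 64.8), in 12 of 34 male and 19 of 26 female cells, on 3 plates, and in 0 of 53 m11c cells (exact 95% interval up to 6.72%, while 3 cells would make 5.66%). *Mest* did so in 22 m12c cells (36.7%, 24.6 to 50.1) and in 0 m11c cells. *Flt1* did so in 17 (28.3%) and again in 0 m11c cells, but in 41 of 113 m3c cells (36.3%) and 56 of 181 m1 cells (30.9%). *Flt1* was found mainly with *Sfrp2*, in 15 of the 31 cells with it and 2 of the 29 without it, which were 6 of 12 and 2 of 22 male cells and 9 of 19 and 0 of 7 female cells. *Mest* was counted in a larger share of the cells without *Sfrp2* in each pool. Over both pools it was counted in 6 of the 31 cells with *Sfrp2* and 16 of the 29 without it. These were 1 of 12 and 12 of 22 male cells, and 5 of 19 and 4 of 7 female cells. The cells with *Sfrp2* were deeper, at a median of 270471 counts against 185400 counts, while those with *Mest* were shallower than those without, at 202955 against 229284 counts. *Sfrp2* was counted in 16 of 39 cells with 3 or 4 markers (41.0%) and 15 of 21 cells with fewer (71.4%). A single cell gave 21.4% of the male and 13.7% of the female counts of *Sfrp2*, and 39.7% and 36.7% of those of *Mest*.

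The male and female m12c cells differed in more genes than did those of the larger fibroblast cluster m1 and in fewer than did those of m11c, but each sex was 1 pool and sex cannot be told apart from plate and depth. Of 5456 genes with at least 50 CPM in either pool, 454 were at least 4-fold higher in the male (8.32%) and 549 in the female m12c cells (10.1%), against 87 and 77 of 5112 genes in m1 with 88 and 93 cells. In m3c, with 91 and 22 cells, they were 430 and 438 of 5623 genes, and in m11c, with 48 and 5 cells, 761 and 700 of 5611 genes (13.6% and 12.5%). The contractile genes *Acta2* and *Tagln* were at 97.2 and 13.2 CPM in the male and 609.9 and 145 CPM in the female m12c cells, and *Osr2*, a relative of *Osr1*, at 0.159 and 161 CPM. *Steap4*, a metalloreductase, was at 940.1 and 179 CPM, *Slit3*, a guidance ligand, at 730.4 and 141 CPM, and *Egr1*, an immediate early gene, at 2928 and 683 CPM. These genes were chosen after their values were seen.

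By overall profile the male m12c cells were most like m11c, with a Pearson r of 0.827 across 20030 genes of log2 CPM, followed by m4, m1, m8 and m10 (0.805 to 0.810), by m3c (0.786) and by m7c (0.740). The female cells were most like m1 (0.854), then m3c (0.778), m4 (0.772) and the 5 cells of m11c (0.750). These r are across genes of 2 sums, which differ in depth and cell number, and carry no p. All 60 m12c cells belonged to 1 cluster of the coarser clustering, cluster m9, with 119 cells.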

How the data were processed

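The data were single-cell counts of reads per gene from sorted mouse liver cells. The authors deposited raw counts per gene and cell, made per the labels with bcl2fastq, Bowtie, Bowtie2, featureCounts (Subread) and Seurat on GRCm38 (mm10). The study's methods name Seurat for the filtering of cells. They had removed cells with few reads or genes, with many spike-in or mitochondrial counts, with very many genes, or with mixed identities. No doublet caller was run here. Cluster numbers were taken from their deposited annotation, made with pagoda2 (community and multilevel settings).

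All 3491 columns of cells were mapped to samples. Of 46609 entries, 92 spike-ins were left out of all totals, which left 46517 genes. For every cluster and pool with at least 5 cells the counts were added up (13 sums of 8 clusters), and these were fitted in edgeR 4.0.16 (R 4.3.3, limma 3.58.1) with TMM scaling, filterByExpr and the quasi-likelihood test, without covariates, since the study's own test takes cells as replicates. Of the genes, 20030 were tested. Genes were called at a Benjamini-Hochberg adjusted p under 0.05 and an absolute log2 fold change of at least 1. CPM are counts per 1e+06 counts of a sum, and log2 ratios within a pool or plate used a pseudocount of 0.5 CPM. Summed m12c counts were 6304764 in the male and 8863047 in the female pool. The labels do not say how many mice a pool holds, so p-values measure only the spread between sums. Shares of cells have exact Clopper-Pearson 95% intervals, and a count of 0 cells is given with the share that 3 cells would make.

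The male and female pools gave several sums each. The male minus female differences of the clusters correlated at r = 0.062 to 0.146 across 19967 genes, and the fit with the pool as a block is given as an alternative. Other alternatives were DESeq2 1.42.0, its size factors, no filter on low counts, at least 3 or 10 cells per sum, cells thinned to 50000 counts, sums per plate, the compared clusters alone, other pseudocounts and, chosen after the data were seen, leaving out 1 cell. Python 3.11.15, numpy 2.4.6, pandas 2.3.3 and scipy 1.17.1 were used, and the model was tested on simulated data.

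The named genes were the 4 markers, the genes the study names for the capsule, the 8 called genes per comparison and direction with the largest change that were counted in at least 50% of cells of the higher side, without predicted genes, and up to 4 called members of each of 29 gene lists. A gene that this rule names is not reported here. The members and the lists were chosen with earlier results of these data known.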

Additional observations from a re-analysis of the deposited data

Results flagged for a closer look

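For 8 of the named genes the m12c pools lay on opposite sides of the cluster compared, so these were looked at again. Each pool is 1 sample, and the difference between the pools was not tested. Against m11c the log2 ratio of CPM was −0.41 in the male and 0.06 in the female pool for *Gpx3*, −0.21 and 0.47 for *Msln*, −5.76 and 1.13 for *Ncam1*, and 0.19 and −0.32 for *Scara5*. Against m3c it was −0.41 and 1.79 for *Adgrd1*, 1.55 and −0.32 for *Krt7*, and −0.15 and 0.76 for *Msln*. Against the other fibroblasts it was 0.76 and −0.81 for *Krt7*, 0.40 and −0.85 for *Mfap4*, −0.36 and 0.68 for *Msln*, −3.39 and 0.29 for *Ncam1*, and −0.33 and 4.33 for *Reln*. *Msln* and *Krt7* were under 3 CPM in both pools of m12c, and the female *Reln* came almost wholly from 1 cell. The adhesion gene *Ncam1* differed most, with 1.74 CPM in male and 25.4 CPM in female m12c cells against 121 and 11.3 CPM in m11c.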

How the results depend on the processing

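The direction of calls was kept throughout, since no gene called higher was called lower under any alternative or the reverse, but their number depended on the model. The cause was not tested, except that fewer sums or genes enter some fits by construction. DESeq2 called 330 genes higher and 342 lower than m11c, 530 and 567 than m3c and 488 and 580 than the other fibroblasts, and without the filter on low counts edgeR called 35 and 60, 195 and 169, and 437 and 172. With the pool as a replicate block the calls against m11c were 0 and 3 (623 and 590 at an unadjusted p under 0.05), against m3c 77 of the 84 and 47 of the 58 genes were called again, and against the other fibroblasts 55 of the 78 and 49 of the 65. With at least 3 cells per sum they were 0 and 2 against m11c (673 and 524 unadjusted), 55 higher against m3c and 49 higher against the others, and with at least 10 cells, which drops the female m11c sum, 0 and 0 against m11c (386 and 645 unadjusted). Cells thinned to 50000 counts gave 5 and 16 against m11c, 113 lower against m3c, and 161 and 112 against the others. Sums per plate gave 0 and 4 against m11c (904 and 545 unadjusted), 234 higher against m3c, and 25 and 22 against the others, where 33 of the named genes lost their call, against 9 with the block. The compared clusters alone gave 0 and 0 against m11c (253 and 268 unadjusted) and 22 and 9 against m3c. Uncalled log2 fold changes near 0 changed sign, for *Scara5* against m11c to 0.0394 (3 cells), 0.0483 (thinned), 0.0011 (clusters alone) and 0.016 (without the cell high in *Reln*), for *Gpx3* to 0.0002 (thinned), *Krt7* to −0.0903 (10 cells) and *Msln* to −0.1835 (block), for *Adgrd1* against m3c to −0.5968 (plates), for *Mfap4* against the others to 0.0288 (DESeq2, and its size factors), 0.0079 (3 cells), 0.1191 (10 cells) and 0.0637 (plates), and for *Msln* to −0.7226 (block). At 20 counts rather than 1 count the share of m12c cells was 65% rather than 80% for *Wt1*, 61.7% rather than 76.7% for *Scara5*, 73.3% rather than 90% for *Fbln2* and 73.3% rather than 88.3% for *Osr1*. Leaving out a pool gave 79.4% to 80.8% for *Wt1*, 73.1% to 79.4% for *Scara5*, 85.3% to 96.2% for *Fbln2* and 79.4% to 100% for *Osr1* at 1 count. Of the log2 fold changes of the named genes under each alternative, 1639 kept their direction and call or stayed near the reported value, 139 lost a call, 17 gained one, 146 moved further and 14 changed sign. The numbers of calls, the shares and the levels are not part of these totals. Depth limits the male cells, whose median cell had 145446 counts.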
